A study of Hypsibius exemplaris with 24 samples.

Results

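The comparison described here sets whole *Hypsibius exemplaris*, a freshwater tardigrade, 1 h after the end of a bleomycin exposure against animals frozen at its end (0 h). It was chosen by sample and not by any measured value, and it takes 6 of the 24 libraries of the series, 3 for each time. Each of the 6 came from a pool of 50 animals, raised on agar with algae, that had spent 24 h in 100 µM bleomycin, dissolved in mineral water (Volvic). The 0 h pools were then frozen, with no wash stated. The 1 h pools were first washed in fresh water, moved to agar with the green alga *Chlorella*, and kept there at 18 °C for 1 h. Both groups were therefore exposed, and they differ in the wash, removal of the drug, the agar, the food and the time. No pool without bleomycin that was washed and fed, and no unwashed pool at 1 h, was analysed here, so these cannot be told apart. The other libraries are 3 from a water control, which spent 24 h in the same water without bleomycin and was frozen like the 0 h pools, and 15 from exposed pools kept on agar for 3 to 24 h. They enter below as reference levels.

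Bleomycin is a glycopeptide drug that binds metal ions and, with oxygen, cuts DNA on one strand or on both. Cells answer such breaks by signalling kinases that halt division, by repair enzymes, and by new transcription of repair and stress genes. Tardigrades are known for survival of heavy DNA damage, and *Hypsibius exemplaris* feeds by piercing algal cells and sucking out their contents. RNA levels in a whole animal mix all of its tissues, so fewer cells of a type and less RNA per cell cannot be told apart.

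Levels were deposited as TPM, which states for each transcript its length-corrected part of one library, on a common total. The table lists 20853 transcripts of 19939 loci and does not pair its identifiers with gene names or products, so transcripts are given by identifier and their roles are not stated. It gives no read counts, and sequencing depth is unknown. Each library was divided by a scale factor (0.664 to 1.18 over the series, 1.07 to 1.11 in the 6 libraries of 0 h and 1 h). Levels below are these scaled TPM. Transcripts listed above 0 numbered 16343, 14984 and 15851 in the 0 h libraries and 16490, 16297 and 16514 in those of 1 h. The 0 h libraries correlated with each other at Pearson r of 0.929 to 0.946 and those of 1 h at 0.961 to 0.963, taken across transcripts (no independent replicates), so the earlier group was the more scattered. A fold change is a difference of mean log2(scaled TPM + 1), which understates the change of transcripts with low levels. A call is an adjusted p under 0.05 from limma, fitted to all 24 libraries, with Benjamini-Hochberg adjustment over all transcripts tested.

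Within the hour, a large part of the RNA population changed. Of 16490 transcripts tested, 3759 (22.8%) were called, 2070 higher at 1 h (12.6%) and 1689 lower (10.2%). The rises had a median log2 fold change of 1.26, with quartiles of 0.89 and 1.93, and the falls a median of -1.06, with quartiles of -1.40 and -0.83. Over all transcripts tested the median was 0.01, as the scaling holds it near 0. Large changes were mostly rises. A change of at least 4-fold was called for 478 rises (2.90%) and 140 falls (0.849%), and 55 rises but 3 falls reached 16-fold. In 2026 of the 2070 rises and 1654 of the 1689 falls, the 3 libraries of 1 h lay wholly to one side of those of 0 h. Such a lack of overlap was common, since it held for 42.2% of all transcripts tested, with 3660 higher and 3303 lower at 1 h.

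Leaving out 1 of the 6 libraries lowered the count of calls to between 2659, without 0 h replicate 2, and 3422, without 0 h replicate 1. In all 6 fits that left out 1 of these libraries, 1122 of the rises and 845 of the falls kept their call and direction. In the fits per isoform with other scalings, filters, pseudocounts, weights or libraries, 0 of the called rises were called falls and 0 of the called falls rises. In the fit of TPM summed per locus, the sum of BV898_16121 was called a rise where its isoform t01 was called a fall.

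**Figure D1:**
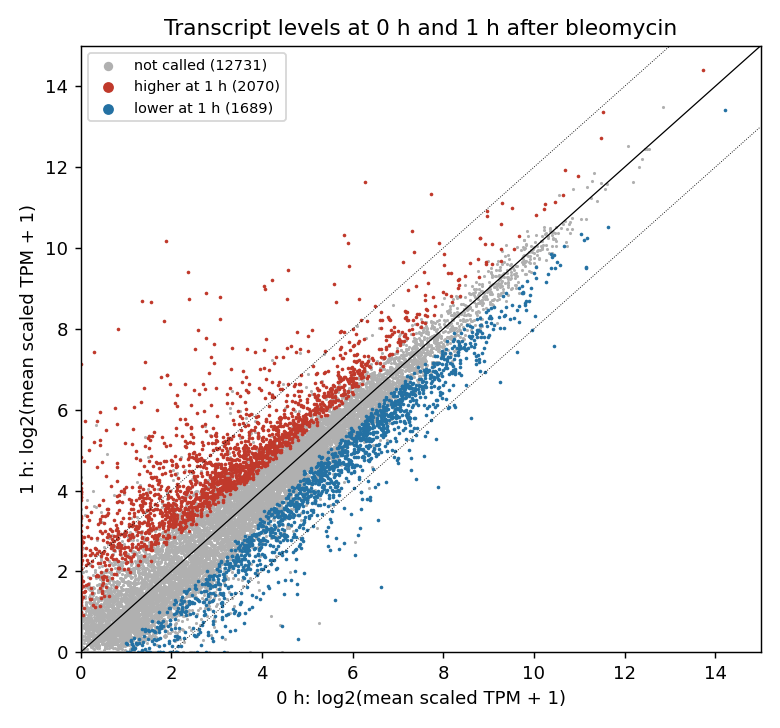
Level of each tested transcript at 0 h (horizontal) and 1 h (vertical), as log2 of the mean scaled TPM of 3 libraries plus 1. Red points were called higher at 1 h (2070), blue ones lower (1689) and grey ones not called (12731). The solid line marks equal levels and the dotted lines a 4-fold difference. Calls of at least 4-fold were 478 rises and 140 falls.

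At 1 h the rises and falls stood at like levels, with medians of 24.2 and 21 scaled TPM. Since the sets were called on 1 h minus 0 h, their levels at 0 h partly follow from the choice. The median rise went from 8.30 scaled TPM at 0 h to 24.2 at 1 h, and the median fall from 46.4 to 21. Among the rises, 62 were listed at 0 in all 3 libraries of 0 h, and 149 were under 1 scaled TPM in each of them. Among the falls, 22 were listed at 0 in all 3 libraries of 1 h. Sorted by mean level over all 24 libraries, transcripts below 5 scaled TPM were called least often, with 3.94% rises and 5.04% falls. From 5 to 20 scaled TPM the shares were 17.6% and 9.19%, and from 100 to 1000 they were 15.5% and 18.6%. Of the 100 transcripts with the highest mean level, 16 were called rises and 7 falls, where 12.6% and 10.2% of all transcripts tested were.

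The exchange was large as a share of all transcripts. The rises together held 9.96%, 8.49% and 8.47% of all deposited TPM in 0 h replicates 1 to 3, and 22.4%, 21.4% and 21.7% in those of 1 h. The falls held 21.8%, 24.3% and 22.9% at 0 h and 11.3%, 11.8% and 11.5% at 1 h. These shares follow from how the sets were chosen and carry no test. In sets called from the 6 libraries alone (2394 rises, 1948 falls), the rises held 13.9% at 0 h and 29.1% at 1 h, and the falls 29.6% and 16%. The 10 most abundant transcripts of each library held 8.33% ± 0.230 of TPM at 0 h and 9.68% ± 0.220 at 1 h (SD, n = 3). These groups did not overlap, and the exact permutation test gave p = 0.1, the smallest that 3 libraries against 3 allow (two-sided).

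Of the 20 rises largest in fold change, 16 had a mean under 5 scaled TPM at 0 h, and of the 20 largest falls, 14 had one at 1 h. BV898_02267 was at 3.53, 1.26 and 3.27 scaled TPM in replicates 1 to 3 of 0 h and at 1346, 985 and 1140.2 at 1 h. Each 1 h library lay far above those of 0 h, with a ratio of means of 431. The log2 change came to 8.35 ± 0.72 (SE), with adjusted p = 3.60e-07 in limma. BV898_01325 was at 2.24, 0.145 and 2.31 at 0 h and at 439, 288 and 506 at 1 h. Its level was thus low in every 0 h library, and the log2 change was 7.44 ± 0.54 (SE), at adjusted p = 6.94e-08 in limma. In the water control these transcripts were also high, at 413, 45.5 and 1006 for BV898_02267 and at 216, 119.9 and 419 for BV898_01325, with replicate 2 the lowest for both. It was the lowest control library for all of the 20 rises largest in fold change.

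BV898_12466 showed the largest fall. It was at 113, 98.4 and 81.4 scaled TPM at 0 h and at 1.40, 1.88 and 2.86 at 1 h, which is a log2 change of -5.03 ± 0.58 (SE) at adjusted p = 4.19e-06 in limma. Every control library, at 99.7, 107 and 109.6, lay close to the 0 h libraries and far above those of 1 h. BV898_07418 was at 30.3, 24.5 and 25 at 0 h and at 0.400, 0 and 0.390 at 1 h, which is a log2 change of -4.46 ± 0.79 (SE) at adjusted p = 3.99e-04 in limma. Its control libraries stood apart from each other, at 0.710, 16.8 and 0.527. Transcripts were named by a rule that allows no overlap between 0 h and 1 h, except for BV898_14257 and the isoform examples, so the separation of the groups follows from the choice.

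The largest changes in amount were those of transcripts that are abundant at every time. BV898_08387, the most abundant transcript at 1 h, was at 14994, 12825 and 13001 scaled TPM at 0 h and at 22488, 22859.6 and 20209.7 at 1 h. Its ratio of means was 1.61, and the log2 change of 0.68 ± 0.15 (SE) had an adjusted p of 0.00196 in limma. With quantile normalization the log2 fold change was 0.39 and the adjusted p 0.11 (limma). The later means of BV898_08387 were 14529, 15794, 19537.5, 17920.5 and 8249 at 3, 6, 9, 12 and 24 h. BV898_01079 was at 4258, 2418 and 2152 at 0 h and at 10579, 10166 and 10721 at 1 h, which is a log2 change of 1.90 ± 0.26 (SE) at adjusted p = 2.80e-05 in limma. It was below its control level of 5909.8 ± 417 at 0 h and above it at 1 h (SD, n = 3), with adjusted p of 0.014 and 0.0306 (limma).

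BV898_16263 was the most abundant transcript at 0 h, at 17634, 20364 and 19541 scaled TPM, and was at 10778, 11533 and 10411 at 1 h. The libraries of 1 h lay within the control range of 10263 to 13309 and those of 0 h above it. The log2 change of -0.81 ± 0.27 (SE) had an adjusted p of 0.034 in limma. This call was lost without any 1 of 0 h replicates 2 and 3 and 1 h replicates 1, 2 and 3, at adjusted p of 0.0641 to 0.0931 (limma). The later means of BV898_16263 were 17257, 10913, 10600.5, 25086 and 9469 at 3, 6, 9, 12 and 24 h. BV898_05127 was at 2784, 3387 and 3405 at 0 h and at 1403, 1668 and 1351 at 1 h, which is a log2 change of -1.11 ± 0.21 (SE) at adjusted p = 6.83e-04 in limma. Its control libraries, at 2090.0, 2417 and 2070.0, lay between the groups.

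**Figure D2:**
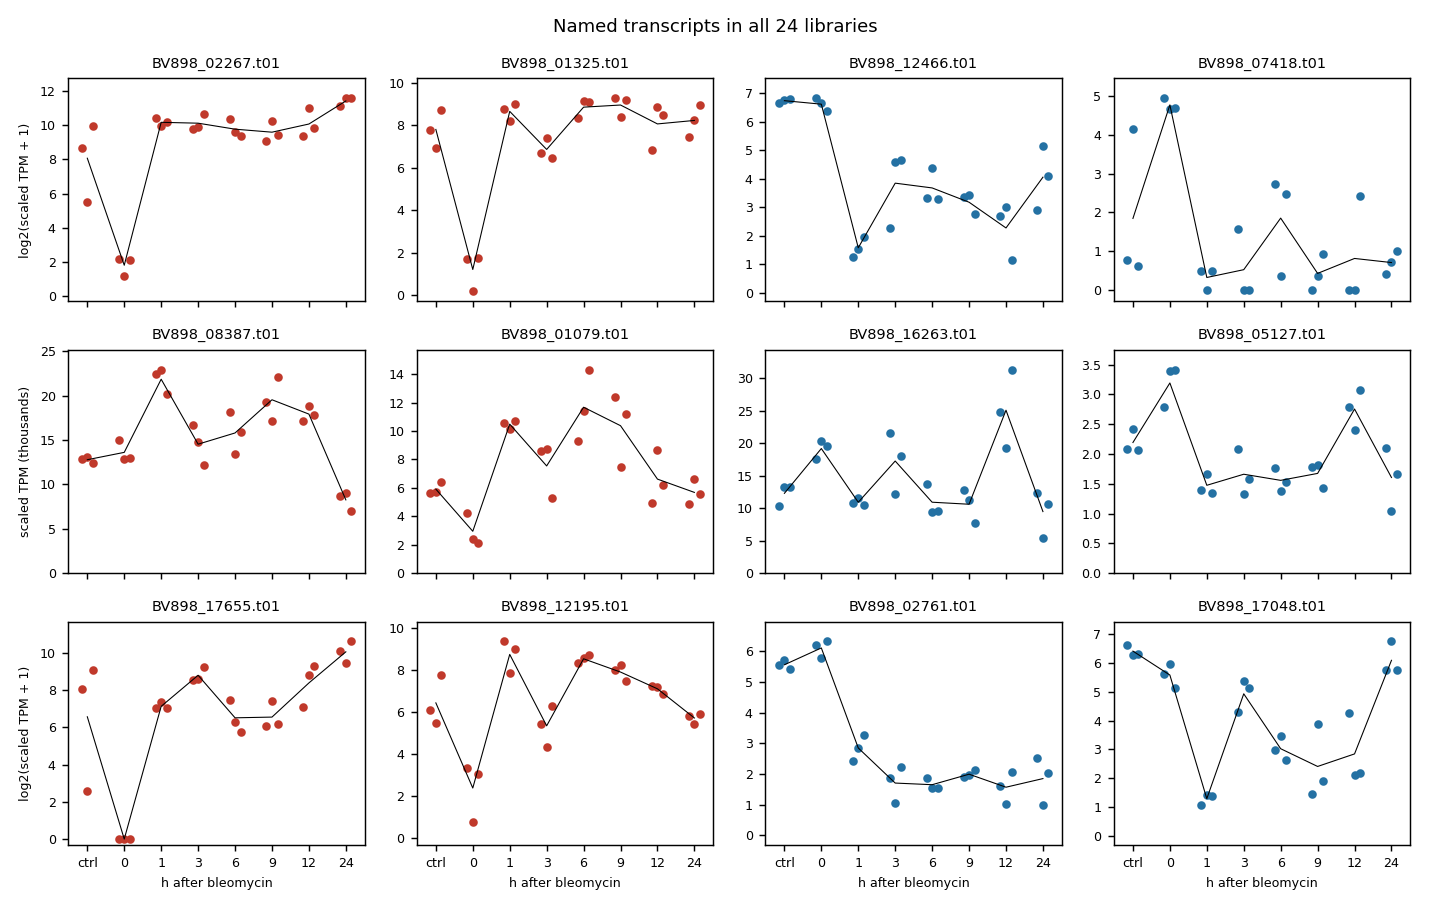
Levels of 12 named transcripts in the control and at 0 to 24 h after bleomycin. Each point is 1 library, lines join group means, red marks rises and blue falls from 0 h to 1 h. The top and bottom rows show log2(scaled TPM + 1) and the middle row scaled TPM on a linear axis from 0. BV898_02267, BV898_01325 and BV898_17655 drop at 0 h and are high in all 18 libraries from 1 h on, while BV898_02761 stays low after 0 h.

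The levels reached at 1 h were set beside those of the water control, which shares no step after exposure with the 1 h pools. The contrasts below share libraries, and so are given as values side by side. Since the sets were called on 1 h minus 0 h, a control level between both groups partly follows from the choice. By their median, the 2070 rises stood at -0.54 on the log2 scale in 0 h libraries relative to control, and at 0.69 in those of 1 h. Their median was below the control level at 0 h and above it at 1 h. The 478 rises of at least 4-fold had medians of -1.59 and 1.16. The 1689 falls had medians of 0.28 at 0 h against control and -0.78 at 1 h against control, and the 140 falls of at least 4-fold of 0.72 and -1.78. By these medians, the falls went from near or above the control level to below it. Over all transcripts tested, the medians were -0.03 and 0, as the scaling holds them near 0.

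Control replicate 2 stood apart on these transcripts. By library, the median level of the 478 largest rises above the 0 h mean was 1.80, 0.59 and 2.29 on the log2 scale in control replicates 1 to 3. In the libraries of 1 h it was 2.70, 2.69 and 2.71, close together and above all 3 controls. Control replicate 2 was the lowest control library for 379 of these 478 transcripts, against 5600 of all 16490 tested. Without it, the median of the 478 against control was -2 at 0 h and 0.66 at 1 h. That of the 140 largest falls was 0.74 and -1.72. The part of this library in the levels given against control was not tested beyond these values. This library enters the calls at 1 h against 0 h only by the scaling, the pooled spread and the filter. Without it 3925 transcripts were called in place of 3759.

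After the first hour, the medians of the full sets stayed nearer to their 1 h level than to their 0 h level. Above the 0 h mean, the median level of the 2070 rises was 1.26 ± 0.02 at 1 h, and then 1.15 ± 0.04, 1.08 ± 0.06, 1.08 ± 0.07, 1.12 ± 0.15 and 1.51 ± 0.08 at 3, 6, 9, 12 and 24 h in turn (log2, SD, n = 3). The value at 1 h follows from the choice of the set. The libraries of 3 to 24 h entered that choice only by the scaling, the filter and the pooled spread. The median of the 1689 falls was -1.06 ± 0.02 at 1 h, and then -0.94 ± 0.07, -0.90 ± 0.02, -0.89 ± 0.06, -0.87 ± 0.12 and -1.01 ± 0.07 in the same order (SD, n = 3). Over all transcripts tested, the group medians lay between 0 and 0.02, which the scaling by median ratios brings about. All 15 libraries of 3 to 24 h lay on the same side of 0 as those of 1 h for both sets, and so did the 3 controls, at 0.58, 0.19 and 0.75 for the rises and -0.30, -0.08 and -0.44 for the falls. The sets of at least 4-fold moved more after 1 h. For those rises the median was 2.70 ± 0.01, 2.32 ± 0.19, 2.45 ± 0.33 and 3.06 ± 0.13 at 1, 3, 12 and 24 h (SD, n = 3). For those falls it was -2.42 ± 0.17, -1.84 ± 0.23, -1.46 ± 0.18 and -1.82 ± 0.14 in the same order (SD, n = 3). Since the 0 h level is common to these differences, a chance departure of the 0 h libraries would enter all of them.

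**Figure D3:**
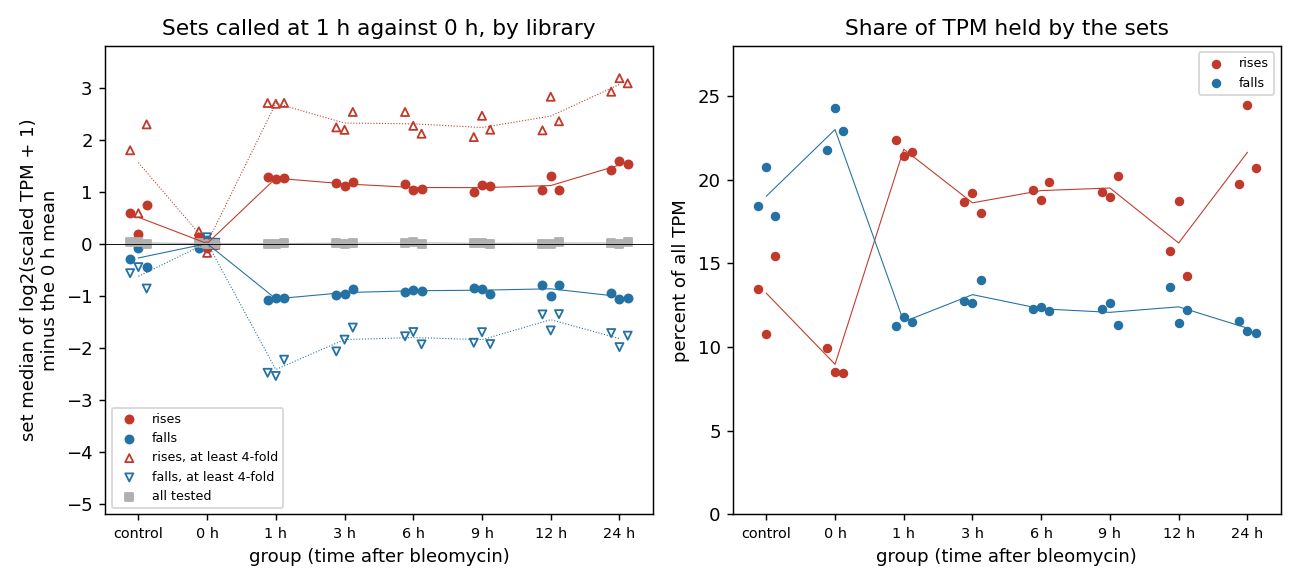
Sets called at 1 h against 0 h, in each of 24 libraries (points, with lines through group means). Left, set median of log2(scaled TPM + 1) minus the 0 h mean. Right, percent of all TPM held by the rises and falls. The rises hold 8.97% at 0 h and 21.8% at 1 h, the falls 23% and 11.5%, and both sets keep their side of 0 through 24 h, the side on which the 3 controls also lie.

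Comparisons whose means use neither 0 h nor 1 h libraries give a view free of that shared level. The scaling, the filter and the pooled spread are still common to all contrasts. The shares over all transcripts tested, here and below, are not matched to the sets by level. Transcripts with a mean below 5 scaled TPM were 5158 of the 16490 tested, but 203 of the 2070 rises and 260 of the 1689 falls. At 3 h, 800 of the 2070 rises (38.6%) were called higher than control and 61 lower, where 16.4% and 15.7% of all transcripts tested were called. At 24 h, 1212 of them (58.6%) were higher and 76 lower, where 25.2% and 22.0% of all were called. Of the 1689 falls, 797 (47.2%) were called lower than control at 3 h and 849 (50.3%) at 24 h, and 94 and 143 higher. Without control replicate 2, 631 (37.4%) and 728 (43.2%) of 1686 were lower, where 12.3% and 18.6% of all were called lower. With unscaled TPM, 904 and 1017 of the falls were lower, where 18.9% and 27.8% of all were. With TPM left unscaled the rises higher than control numbered 613 at 3 h and 980 at 24 h, where 12.9% and 19.2% of all were called higher. Those lower at 24 h then numbered 129, where 27.8% of all were called lower. Without control replicate 2 the rises higher than control numbered 572 at 3 h and 1012 at 24 h. Of the 478 largest rises, 132 (27.6%) were higher than control at 3 h, but 81 without control replicate 2, where 12.3% of all were called. At 24 h 291 of these were higher, and 210 without that control, where 21.3% of all were called.

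Some transcripts held their change to the end of the series. BV898_02267 was at 1146 ± 378 scaled TPM by 3 h and 2758 ± 484 by 24 h (SD, n = 3), and its lowest library after 1 h was at 545. BV898_17655 was listed at 0 in every 0 h library and was at 129, 161 and 129 at 1 h (limma, adjusted p = 1.35e-04). By 3 h it had 456 ± 133 and by 24 h 1120.4 ± 435 (SD, n = 3), after 263, 4.95 and 543 in the controls. Control replicate 2 is again the low one. BV898_02761 was at 73.2, 53.8 and 79.6 at 0 h and at 4.31, 6.24 and 8.71 at 1 h, which is a log2 change of -3.26 ± 0.36 (SE) at adjusted p = 3.04e-06 in limma. At no later time did any library exceed 4.78, against 41.9 to 51.6 in the controls. BV898_07418 reached at most 5.61 in any of the 15 later libraries.

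Other transcripts were called in the opposite direction at 3 h against 1 h, and are termed brief below. The term covers only the times up to 3 h. At 6 h, each brief transcript named below was again nearer to its 1 h mean than to its 3 h mean. By the rule for named transcripts, 154 rises and 181 falls were of this kind, where 3.13% and 4.54% of all transcripts tested were called lower and higher at 3 h. Both contrasts share the 1 h libraries, so these counts describe the sets and support nothing. BV898_12195 was at 9.21, 0.686 and 7.39 scaled TPM at 0 h, at 661, 231 and 515 at 1 h, and at 42.3, 19.1 and 76.8 at 3 h. Its level was thus back near the controls, at 67.3, 43.5 and 215, after 3 h. Its log2 fold change was 6.36 at 1 h against 0 h and -3.40 at 3 h against 1 h (limma, adjusted p = 8.98e-07 and 0.00193). At 6 h it was high again, at 373 ± 50.7, and at 9 h it was at 244 ± 60.7 (SD, n = 3). BV898_04116 was at 0.233, 0.343 and 0.103 at 0 h, at 194, 77.3 and 243 at 1 h, at 30.3, 9.86 and 43.2 at 3 h, and had a mean of 141 ± 25.5 by 6 h (SD, n = 3). It too was high at 1 h and 6 h with a lower level between.

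Among the brief falls, BV898_17048 was at 48.6, 61.9 and 34 at 0 h, at 1.12, 1.68 and 1.60 at 1 h, and at 18.6, 40.2 and 34 at 3 h. The 1 h libraries lay far below both neighbouring times. The log2 fold changes were -4.29 at 1 h against 0 h and 3.64 at 3 h against 1 h (limma, adjusted p = 1.11e-05 and 3.34e-04). It was low again by 6 h, with 7.36 ± 2.40, and stayed low with 6.02 ± 6.55 at 9 h and 8.29 ± 8.46 at 12 h. By 24 h it had 71.1 ± 31.2 (SD, n = 3). BV898_13294 was at 24.2, 6.63 and 47.7 at 0 h, at 2.89, 0.406 and 1.78 at 1 h, and at 14.9, 18.6 and 21 at 3 h (limma, adjusted p = 6.10e-04 for 1 h against 0 h). Its 0 h libraries were widely spread, yet each lay above all 3 of 1 h.

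As sets, the brief changes lay at 6 h between their levels of 1 h and 3 h. Above the 0 h mean, the median of the 154 brief rises was 1.65 ± 0.09 at 1 h, and then 0.31 ± 0.05, 0.99 ± 0.05, 0.76 ± 0.06 and 0.48 ± 0.18 at 3, 6, 9 and 12 h in turn (log2, SD, n = 3). That of the 181 brief falls was -1.06 ± 0.02, -0.02 ± 0.18, -0.54 ± 0.08, -0.42 ± 0.12 and -0.15 ± 0.10 in the same order (SD, n = 3). The first 2 of these values follow from the choice of the sets, and the later ones share with it the 0 h mean. The means of 12 h and 9 h had no part in that choice. Their libraries entered it by the scaling, the filter and the pooled spread, so the shares below are not fully independent of it. There 33 of the 154 brief rises were called lower (21.4%) and 12 higher, where 12.2% and 14.4% of all transcripts tested were called. Of the 181 brief falls, 52 were called higher (28.7%) and 18 lower. With TPM left unscaled, 6.16% of all transcripts tested were called higher and 23.1% lower at 12 h. At that setting 70 of the 154 were lower and 5 higher, and 53 of the 181 were lower and 15 higher. Without 12 h replicate 3, whose scale factor of 0.664 was the lowest of the series, 2.88% of all were called higher and 3.07% lower. Of the 154, 9 were then lower and 5 higher, and of the 181, 9 were lower and 6 higher. The direction of the brief falls at 12 h against 9 h thus turned with the setting, as did the balance of all transcripts tested.

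Few loci had isoforms called in opposite directions, namely 8 of the 620 with at least 2 tested isoforms. For locus BV898_16121, isoform t02 was at 6.94, 0 and 0 scaled TPM at 0 h and at 22.0, 20.8 and 24.4 at 1 h, while isoform t01 was at 6.95, 15.1 and 8.83 and then at 2.74, 0 and 0. Isoform t01 was thus listed at 0 in 1 h replicates 2 and 3, and t02 in 0 h replicates 2 and 3. The log2 change of t02 was 3.55 ± 0.64 (SE) and that of t01 -2.80 ± 0.96 (SE), at adjusted p of 4.84e-04 and 0.0404 in limma. Summed over isoforms, BV898_16121 rose by 0.87 on the log2 scale (limma, adjusted p = 0.00829). For locus BV898_06982, isoform t01 was at 0, 0 and 4.48 at 0 h and at 10.1, 13.9 and 24.2 at 1 h, and isoform t02 at 21, 24.1 and 11.8 and then at 5.50, 4.10 and 0. The sum over both isoforms changed by -0.08 on the log2 scale, which was not called (limma, adjusted p = 0.854). Reads shared between isoforms were split by estimation, so these levels, values of exactly 0 among them, are uncertain. The count of 8 loci was 2 to 6 in the fits that left out 1 library, and the calls for BV898_16121 t01 and for both isoforms of BV898_06982 were each lost in several of them.

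Locus BV898_14257, which the naming rule listed by identifier, was at 182, 398 and 328 scaled TPM at 0 h and at 85.1, 47.2 and 73.8 at 1 h. Each library of 1 h was below each of 0 h, and all 6 were above the controls, at 9.03, 13.2 and 15.7. Between 0 h and 1 h its log2 change was -2.09 ± 0.30 (SE), at adjusted p = 5.05e-05 in limma, a ratio of means of 4.40 between 0 h and 1 h. Later group means ran from 64 at 24 h to 169.6 at 12 h.

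**Figure D4:**
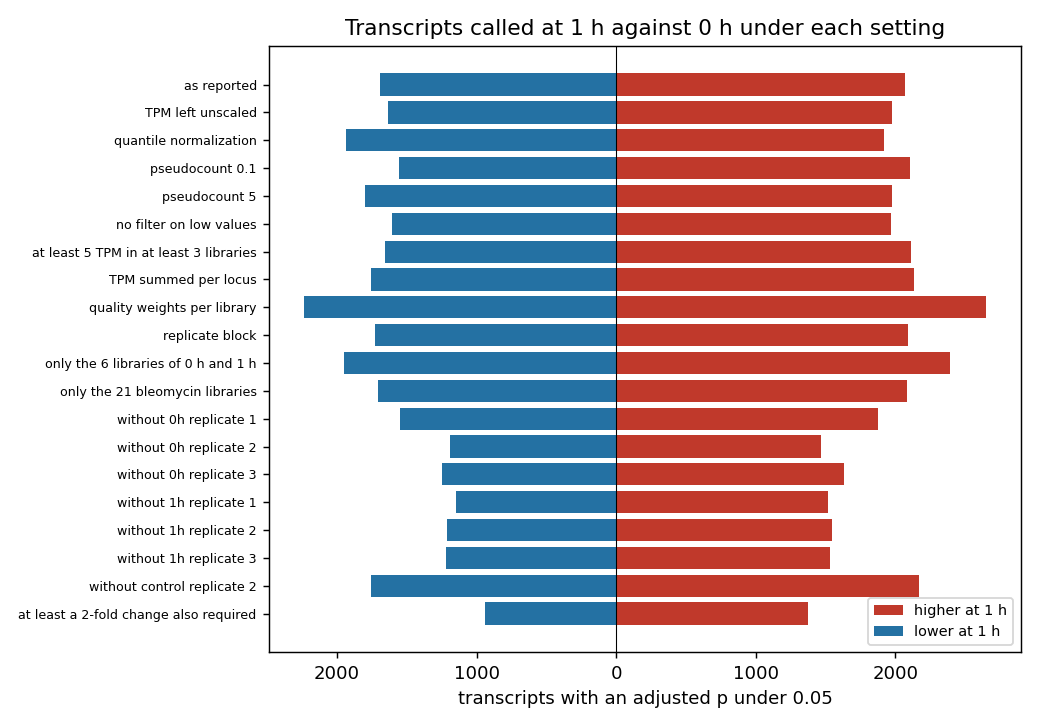
Number of transcripts called higher (red, to the right) and lower (blue, to the left) at 1 h against 0 h under each setting. The bars start at 0. As reported there are 2070 and 1689, and the smallest counts from a change of libraries are 1469 higher without 0 h replicate 2 and 1144 lower without 1 h replicate 1.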

How the data were processed

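RNA of 24 pools of 50 animals in 8 groups was measured. Per the labels' protocols, total RNA was column-extracted and made into Illumina libraries. The deposited values are TPM per transcript isoform, made by the authors and not normalized across libraries, per the file name. The submitters' processing notes name RSEM 1.2.26, Bowtie2 2.2.9, DESeq2 1.22.2 and FastQC 0.11.3 and no roles. The build is not given in the sources used here. Depth cannot be read from TPM, so counting error is unknown.

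TPM were divided by each library's median ratio to the geometric mean over 12190 transcripts above 0 in all libraries. The filter kept 16490 transcripts that reached 1 TPM in 3 or more libraries. No count model was used. The model in limma 3.58.1 (R 4.3.3) had a mean per group over all 24 libraries, with trend and robust settings, two-sided. The procedure was tested on simulated data with normal residuals of the same spread in every group. These lack the zeros and unequal scatter of the real libraries, so the test does not cover low levels. Figures used matplotlib 3.10.9 in Python 3.11.15.

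Candidates for naming had a call, a higher group mean of 5 scaled TPM or more, and no overlap. The 2 rises and 2 falls largest in fold change, in scaled TPM, in the change held over 3 to 24 h, and in a change undone at 3 h were taken, with the 2 loci of most opposed isoforms and BV898_14257. Members and lists were chosen with earlier results of these data known. Of 24 lists by product name, 0 could be matched and their counts were not used here. The labels number the replicates but name no culture, and more pools were exposed than sequenced, so p-values measure the spread between these pools. The labels give no batch or date.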

Additional observations from a re-analysis of the deposited data

How the results depend on the processing

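In all 6 fits that left out 1 library of 0 h or 1 h, 1122 of the 2070 rises kept their call. So did 845 of the 1689 falls. For the 19 named transcripts, 317 of 342 values under alternatives had the direction and side of the threshold reported. Most of the 19 were chosen from this contrast for large changes without overlap. Their values therefore partly follow from the choice and do not measure how the other calls held. The reversed values were those of isoforms set beside their locus sums, 0.87 for BV898_16121 t01 and -0.082 for BV898_06982 t01. Leaving out 1 library gave 2659 to 3422 calls (1469 to 1873 higher, 1144 to 1549 lower), 395 to 528 rises and 111 to 162 falls of at least 4-fold, and 2 to 6 opposed isoform loci. The other counts were within 1.5 times the reported ones, from 3573 with no filter to 4891 with quality weights, except that rises and falls of at least 4-fold were 748 and 225 with a pseudocount of 0.1 and 179 and 48 with 5, and that a required 2-fold change left 2315 calls (1374 higher, 941 lower). Quantile normalization split the calls into 1918 higher and 1933 lower and shifted log2 fold changes by a median of -0.10. Deviations of same-numbered libraries of 0 h and 1 h correlated at -0.02 to 0.04, and those of other numbers at -0.12 to 0.11. With 3 libraries a group, these values show no pairing by number but cannot exclude it. With the replicate block, 3820 transcripts were called.

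Shares of TPM held by sets called from the 6 libraries alone were 13.9% and 29.1% for rises at 0 h and 1 h and 29.6% and 16% for falls. Those sets had median levels above the 0 h mean (log2) of 1.07, 1.01 and 0.99 at 3, 6 and 9 h for rises, and of -0.87 at 6 h and -1.08 at 24 h for falls. With unscaled TPM, the median of the rises was 0.90 at 12 h, and that of the falls -0.94, -0.95, -1.15 and -1.14 at 6, 9, 12 and 24 h. When 1 library was left out, medians of rises spanned 0.56 to 0.67 (control), 1.27 to 1.32 (3 h), 1.18 to 1.25 (6 h), 1.18 to 1.23 (9 h), 1.2 to 1.34 (12 h) and 1.61 to 1.75 (24 h). Those of falls spanned -0.41 to -0.24 (control), -1.07 to -0.99 (3 h), -0.995 to -0.95 (6 h), -0.99 to -0.94 (9 h), -1.07 to -0.83 (12 h) and -1.17 to -1.02 (24 h). The sets differ between these fits. The fits without control replicate 2, with other scalings for times after 1 h, and without 12 h replicate 3 were chosen after seeing the data. Lists by product name could not be refitted.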

Other observations

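Changes were also compared between loci with consecutive identifier numbers. Of 1809 loci with a rise whose next number was also tested, 363 (20.1%) were followed by another rise, where 13% of all tested loci held one. For falls it was 238 of 1442 (16.5%), against 10.6%. These differences were not tested. The longest run of rises was 6 loci, BV898_14384 to BV898_14389, of which BV898_14385 went from 1.90 ± 0.855 to 20.5 ± 3.99 scaled TPM (SD, n = 3). Falls ran over 4 loci, BV898_06788 to BV898_06791, of which BV898_06789 went from 549 ± 96.4 to 253 ± 19.6 (SD, n = 3). In 4 consecutive loci with rises of at least 4-fold, BV898_04998 to BV898_05001, the 1 h means lay below the control means, for instance 48.8 at 1 h, 5.67 at 0 h and 144 in the control for BV898_04998. Whether consecutive numbers are neighbours in the genome, or near-identical copies that share reads, was not tested. These loci were chosen after their values were seen.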
